A study of Mus musculus with 15 samples.

Results

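The 10 genes followed here are commonly used to recognise a fibroblast. They are Pdgfra, Pdgfrb, Thy1, Fap, Ly6a, Prrx1, Tcf21, Fbln1, Postn and S100a4, and they are 10 of 35675 genes in the files and 10 of 19331 genes that passed the filter on low counts. All 10 passed it. The question is whether fibroblasts lose this starting identity when they are driven towards muscle progenitors. In none of the 4 transfected conditions was any of the 10 genes called lower than in untransfected fibroblasts, and 7 to 9 of them were called higher. Of all 19331 tested genes, 22.8 to 26.6% were called higher and 18.0 to 21.6% lower in these comparisons. Tcf21 had little room for a lower call, at 8 to 17 counts per library of untransfected fibroblasts. Prrx1 was called in no comparison, and the members furthest apart between +MyoD+F/R/C and +MyoD were Tcf21, higher with the small molecules but at a few counts per library with MyoD alone, and Ly6a, lower with them.

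Fibroblasts are the connective tissue cells that secrete and remodel the extracellular matrix, and no single gene is unique to them. Their usual markers therefore fall into several kinds, which are growth factor receptors and antigens on the cell surface, transcription factors of the embryonic mesenchyme, and proteins of the matrix or cytoplasm. In skeletal muscle, Pdgfra and Ly6a (the antigen Sca-1) mark the fibro-adipogenic progenitors that lie between the fibres, whereas satellite cells, the muscle stem cells, are marked by Pax7. MyoD (Myod1) is a basic helix-loop-helix factor that can turn fibroblasts into muscle cells and binds E-boxes, of which the letters CAGCTG are a preferred form.

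Bulk RNA-seq was available for 15 cultures, from 3 lines of mouse embryonic fibroblasts (MEFs) in each of 5 conditions. All lines carried the genotype Tg:Pax7-nGFP/C57BL6;DBA2, a green reporter of Pax7 expression, and each line came from a single embryo. Line numbers 1 to 3 are the replicate numbers of the labels, taken to name the same 3 lines in every condition. Of the transfected conditions, +MyoD+F/R/C+CP received synthetic MyoD mRNA with Forskolin, RepSox, CHIR99210 and CP690550, +MyoD+F/R/C+SP received it with the same first 3 compounds and SP600125, +MyoD+F/R/C with those 3 compounds alone, and +MyoD with none of them. Of these compounds, CP690550 blocks JAK kinases and SP600125 the kinase JNK, whereas CHIR99210 blocks GSK3, RepSox the receptor for TGF-β, and Forskolin acts through cAMP. These 4 conditions had 4 transfections and were collected at day 10, and their medium also held the interferon-binding protein B18R. MEFs were untransfected cells that the labels place at day 10 in the same basal medium without naming B18R, while the names of the deposited files place them at day 0. In each comparison with MEFs, the mRNA, B18R, the transfection itself, the time in culture and any small molecules given therefore cannot be told apart. Each culture is a mixture of converted and unconverted cells, and in bulk RNA fewer cells of a type and less RNA per cell cannot be told apart either.

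Estimated counts per library summed to between 29393872 and 41885769. Mitochondrial genes took 2.52 to 3.64% of them with CP, 3.001 to 5.06% with SP, 2.98 to 3.10% with F/R/C and 1.43 to 1.80% with MyoD alone, against 1.31 to 1.42% in MEFs, so this share was higher in every transfected library than in the MEFs, and its part in the results was not tested. The 10 most abundant genes took 10.3% of counts in +MyoD line 2 and 5.39 to 7.58% in the other 14 libraries. Levels below are CPM, the reads of a gene relative to the library total after TMM scaling, and a gene was called when edgeR's quasi-likelihood test gave a Benjamini-Hochberg adjusted p of at most 0.05 and a log2 fold change (log2FC) over 0.5 in size. The median log2FC over all 19331 genes was not 0 against MEFs, at 0.14 with CP, 0.13 with SP, 0.19 with F/R/C and 0.12 with MyoD alone, and the log2FC of a member should be read against that shift. Without TMM scaling these shifts were larger, at 0.38, 0.36, 0.43 and 0.18 in the same order.

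The conversion itself was visible in other markers of the same libraries. The 8 skeletal muscle markers summed to 5155 to 7480 CPM with CP, 4829 to 6058 CPM with SP, 5588 to 8668 CPM with F/R/C and 1241 to 1914 CPM with MyoD alone, against 34.9 to 47.5 CPM in MEFs. The 5 satellite cell markers reached 254 to 299.98 CPM with CP, 190 to 335 CPM with SP, 143 to 222 CPM with F/R/C and 13.01 to 37.9 CPM with MyoD alone, against 1.47 to 1.87 CPM in MEFs. Among them Pax7 measured 5.45 to 14.1 CPM with CP, 4.99 to 20.4 CPM with SP and only 0.28 to 1.22 CPM with F/R/C. Pax7 was at 0 in all +MyoD libraries and at most 0.11 CPM in MEFs. All 5 were called higher than in MEFs with CP, SP and F/R/C, against 24.5 to 26.6% of all tested genes. With MyoD alone 1 was called higher, against 22.8% of all tested genes, and 3 stayed under 1 CPM in every library. The median log2FC of the 5 was -0.46 there. Markers of the other cell types that can carry Thy1, Ly6a or Pdgfrb were read in the same way. T cell and thymocyte markers, which bear on Thy1, summed to at most 2.18 CPM in any library. The leukocyte marker Ptprc stayed below 1 CPM in every library, and its list of 5 summed to 6.88 to 22.9 CPM over the 4 transfected conditions and to 16.8 to 26.8 CPM in MEFs. The 6 pericyte markers, which bear on Pdgfrb, summed to 438 to 526 CPM with CP, 438 to 483 CPM with SP, 340 to 510 CPM with F/R/C and 652 to 883 CPM with MyoD alone, against 391 to 469 CPM in MEFs. These sums hide a mixed list. Against MEFs 3 of the 6 were called higher and 2 lower with CP and with F/R/C. With SP these counts were 3 and 1, and with MyoD alone 4 and 0. Of all tested genes, 22.8 to 26.6% were called higher and 18.0 to 21.6% lower. The median log2FC of the 6 was 2.68 with CP, 2.40 with SP, 2.58 with F/R/C and 2.32 with MyoD alone. Endothelial markers summed to at most 16.1 CPM in any library. Chondrocyte markers summed to 11.5 to 76.3 CPM over the transfected conditions against 120 to 235 CPM in MEFs, and epithelial markers to 15.1 to 43.4 CPM against 80.7 to 94.1 CPM. Most of the chondrocyte sum in MEFs was Col2a1, at 94.9 to 200 CPM. With CP, 1 of the 4 epithelial markers was called higher than in MEFs and 2 lower. In each other transfected condition 2 were called lower and none higher. Adipocyte markers summed to 29.02 to 44.7 CPM with CP, 47.3 to 66.6 CPM with SP, 19.3 to 33.4 CPM with F/R/C and 3.49 to 9.38 CPM with MyoD alone, against 6.45 to 6.63 CPM in MEFs. Of these 5 markers, 2 were called higher than in MEFs and 1 lower with MyoD alone. With the small molecules 4 or 5 were called higher and none lower. Smooth muscle and myofibroblast markers summed to 2360 to 4870 CPM with the small molecules and 3834 to 8414 CPM with MyoD alone, against 4857 to 6258 CPM in MEFs, and tendon markers to 9.19 to 25.7 CPM and 20.2 to 32.5 CPM, against 5.04 to 7.03 CPM. Much of the smooth muscle sum was Acta2, at 606 to 1948 CPM with the small molecules and 2277 to 3008 CPM in MEFs. Of the 6 smooth muscle markers, 3 were called higher than in MEFs with each of CP, SP and F/R/C. With CP and SP 1 was called lower, and with F/R/C 2. The part of any of these cell types in the results below was not tested.

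Promoter sequences were available in the RefSeq table (build GRCm38.p6, 250 bases before to 50 after a start site) for 6 of the 10 genes, which were Pdgfra, Prrx1, Tcf21, Fbln1, Postn and S100a4. There was no entry for Pdgfrb, Thy1, Fap or Ly6a. They were searched on both strands for the E-box CANNTG, for its form CAGCTG and for the TATA box TATAAA. Of 32851 windows of this length in the table, 72.3% hold CANNTG, 16.3% hold CAGCTG and 13.6% hold TATAAA. Those of 4 genes are shown because their genes gave different patterns, with Pdgfra and Fbln1 rising further with the small molecules, Postn rising above MEFs in all transfected conditions, and Prrx1 called in none. Tcf21 also rose further with F/R/C (log2FC 4.30 against +MyoD), but its window, which holds no CANNTG, is not printed. Each printed window runs 5′ to 3′ on the strand of its gene, and capitals mark a match to CANNTG or TATAAA.
Pdgfra, chr5:75152001-75152300, plus strand: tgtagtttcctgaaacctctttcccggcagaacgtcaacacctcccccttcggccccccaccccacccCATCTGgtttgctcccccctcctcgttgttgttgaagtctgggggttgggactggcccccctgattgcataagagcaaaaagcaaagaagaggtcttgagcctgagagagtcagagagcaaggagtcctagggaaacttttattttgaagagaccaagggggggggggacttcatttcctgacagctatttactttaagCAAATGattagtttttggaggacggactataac
Fbln1, chr15:85205699-85205998, plus strand: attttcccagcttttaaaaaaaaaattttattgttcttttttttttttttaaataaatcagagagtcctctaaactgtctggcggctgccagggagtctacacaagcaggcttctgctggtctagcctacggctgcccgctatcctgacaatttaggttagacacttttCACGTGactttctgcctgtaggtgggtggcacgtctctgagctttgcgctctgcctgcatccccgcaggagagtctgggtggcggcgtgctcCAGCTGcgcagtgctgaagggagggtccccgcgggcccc
Postn, chr3:54360857-54361156, plus strand: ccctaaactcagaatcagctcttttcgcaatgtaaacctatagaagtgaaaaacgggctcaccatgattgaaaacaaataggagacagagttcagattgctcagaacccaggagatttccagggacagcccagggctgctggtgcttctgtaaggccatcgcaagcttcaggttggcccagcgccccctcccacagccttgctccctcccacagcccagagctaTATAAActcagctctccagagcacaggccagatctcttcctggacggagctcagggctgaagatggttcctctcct
Prrx1, chr1:163313601-163313900, minus strand: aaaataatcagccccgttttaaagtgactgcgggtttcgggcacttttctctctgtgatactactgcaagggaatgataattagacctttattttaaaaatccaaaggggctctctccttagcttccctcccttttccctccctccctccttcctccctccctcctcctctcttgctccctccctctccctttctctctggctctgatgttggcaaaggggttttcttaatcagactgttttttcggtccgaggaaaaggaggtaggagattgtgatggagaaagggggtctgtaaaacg
The Pdgfra window holds 2 E-boxes, CATCTG and CAAATG. The Fbln1 window also holds 2, CACGTG and the CAGCTG form. The table gives 2 start sites for Fbln1 and for Postn, and 1 is printed of each. The other Fbln1 window overlaps the printed one and holds the same 2 E-boxes, whereas the other Postn window holds neither motif. The windows of Prrx1, Tcf21, Postn and S100a4 hold no CANNTG, and the printed Postn window and that of S100a4 hold the only matches to TATAAA among the members. These matches describe the letters only, and a window without a match says nothing about binding elsewhere.

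Both PDGF receptor genes were among the members called higher. Pdgfrb (GRCm38 chromosome 18, 61045150 to 61085061, plus strand) encodes the β receptor for platelet-derived growth factor, found on fibroblasts and pericytes. It measured 379, 408 and 326 CPM in lines 1 to 3 with CP, 377, 373 and 298 CPM with SP, and 402, 507 and 304 CPM with F/R/C. With MyoD alone it measured 199, 285 and 219 CPM, against 34.0, 39.0 and 35.8 CPM in MEFs. All 12 transfected libraries thus lay above all 3 MEF libraries, and the F/R/C libraries lay above the +MyoD libraries. Relative to MEFs, its log2FC was 3.35 with CP, 3.27 with SP, 3.48 with F/R/C and 2.69 with MyoD alone, with an SE of 0.19 to 0.20 and edgeR adjusted p of 5.4e-08 or less in each. With F/R/C that is an 11.1-fold higher level than in MEFs.

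Pdgfra (chromosome 5, 75152292 to 75198215, plus strand), the α receptor, depended more on the small molecules. It measured 499, 434 and 503 CPM with CP, 569, 543 and 576 CPM with SP, and 733, 904 and 559 CPM with F/R/C. With MyoD alone it measured 61.7, 253 and 323 CPM, against 133, 67.4 and 108 CPM in MEFs. The libraries with small molecules were all above the MEF libraries, but those with MyoD alone overlapped them, since +MyoD line 1 lay below MEF line 1. Set against MEFs, the log2FC of Pdgfra was 2.22 (SE 0.42) with CP, 2.45 (SE 0.42) with SP and 2.83 (SE 0.43) with F/R/C, with edgeR adjusted p of 3.9e-04, 1.8e-04 and 4.8e-05. With MyoD alone it was 1.05 (SE 0.40, edgeR adjusted p = 0.046), higher in 2 of 3 lines, and this call was lost with DESeq2 (adjusted p = 0.054), with the line as a block (adjusted p = 0.077), with length-scaled counts (adjusted p = 0.13), in a fit of those 6 libraries alone (adjusted p = 0.15), and when +MyoD line 2, +MyoD line 3, MEF line 2 or MEF line 3 was left out.

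Thy1 (chromosome 9, 44043384 to 44048579, plus strand) encodes a small GPI-anchored glycoprotein used to sort fibroblasts. It measured 788, 831 and 942 CPM with CP, 913, 1063 and 1182 CPM with SP, and 1313, 1312 and 1099 CPM with F/R/C. With MyoD alone it measured 1029, 1453 and 1480 CPM, against 364, 281 and 304 CPM in MEFs. No transfected library overlapped the MEFs, and the libraries with F/R/C overlapped those with MyoD alone. Its log2FC against MEFs was 1.43 with CP, 1.73 with SP, 1.97 with F/R/C and 2.06 with MyoD alone (SE 0.16 in each), with edgeR adjusted p of 3.4e-06 or less.

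Fap (chromosome 2, 62500943 to 62574075, minus strand), a serine protease of the fibroblast surface, was present at a low level. It measured 25.5, 17.5 and 25.8 CPM with CP, 20.1, 19.7 and 20.2 CPM with SP, and 16.4, 22.7 and 27.9 CPM with F/R/C. With MyoD alone it measured 5.42, 15.9 and 20.03 CPM, against 3.89, 4.36 and 3.37 CPM in MEFs. Again the groups did not overlap with MEFs, although +MyoD line 1 stood close to them. For Fap, log2FC against MEFs was 2.56, 2.37, 2.53 and 1.83 for CP, SP, F/R/C and MyoD alone (SE 0.36 in each), with edgeR adjusted p of 5.7e-04 or less.

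Ly6a (chromosome 15, 74994877 to 74998031, minus strand) followed another course. The gene encodes Sca-1, a surface antigen that interferons also raise. It measured 71.9, 53.1 and 58.8 CPM with CP, 131, 108 and 142 CPM with SP, and 94.7, 67.2 and 102 CPM with F/R/C. With MyoD alone it measured 247, 292 and 625 CPM, against 53.1, 21.2 and 48.0 CPM in MEFs. The +MyoD libraries were the highest of all 15, those with CP overlapped the MEFs, and those with F/R/C or SP lay between. The log2FC against MEFs was 3.25 (SE 0.37) with MyoD alone, a 9.51-fold higher level (edgeR adjusted p = 3.8e-06), and 1.64 (SE 0.35, edgeR adjusted p = 0.0010) with SP. It was 1.11 with F/R/C (SE 0.34, edgeR adjusted p = 0.013), a call lost when MEF line 2 (adjusted p = 0.058) or F/R/C line 3 was left out. With CP it was 0.59 (SE 0.34, edgeR adjusted p = 0.17), not called, though with the line as a block it was called (log2FC 0.66, adjusted p = 0.0496). Ly6a belongs to a family of similar genes, and reads shared among them were divided by the quantification.

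**Figure D1:**
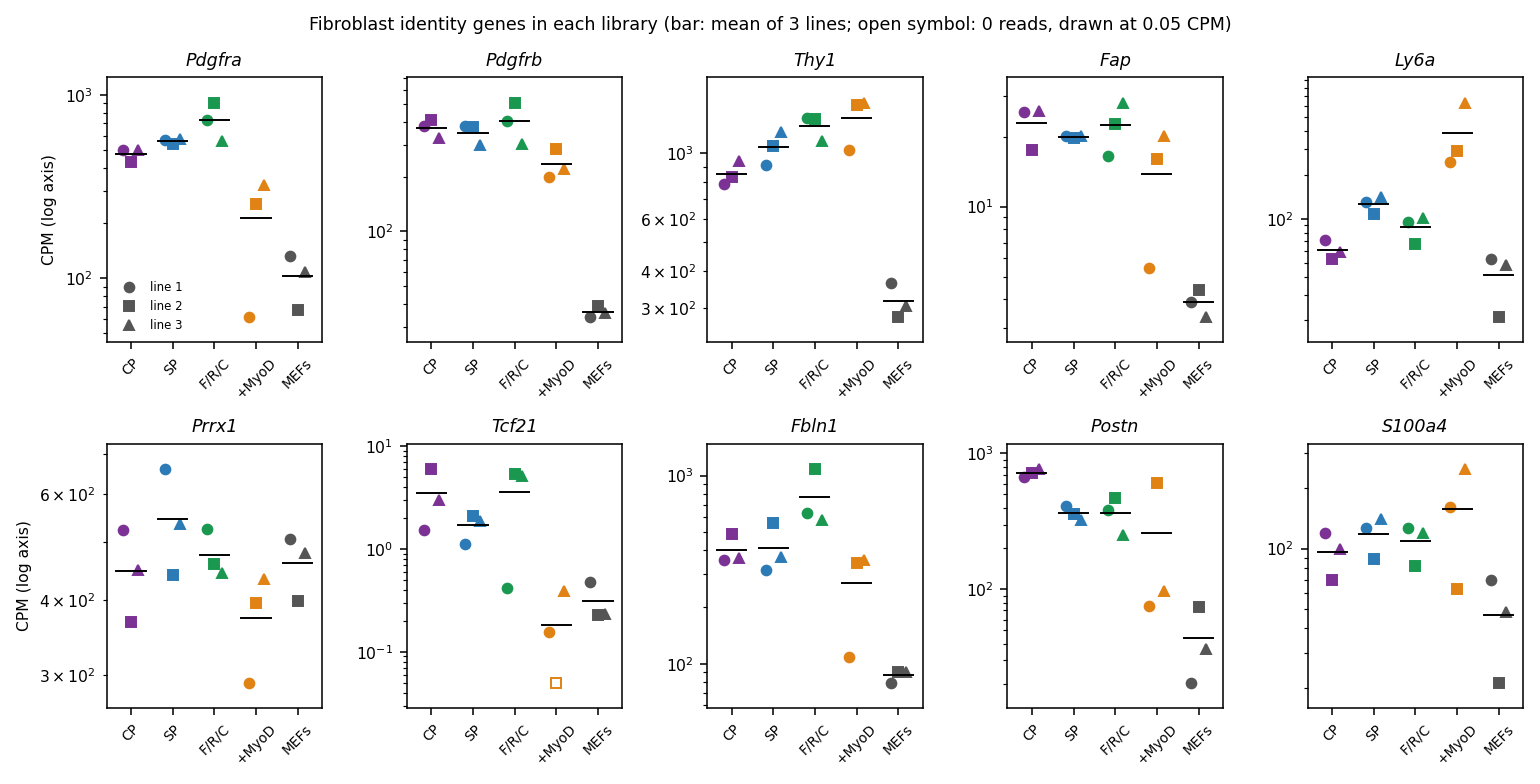
CPM on a log axis for each of the 10 genes in each library, with symbols for lines 1 to 3, a bar for the mean of 3 lines and the conditions ordered +MyoD+F/R/C+CP (CP), +MyoD+F/R/C+SP (SP), +MyoD+F/R/C (F/R/C), +MyoD and MEFs. Pdgfrb, Thy1, Fap, Fbln1 and Postn have every transfected library above every MEF library, Prrx1 overlaps the MEFs in each transfected condition, and Ly6a is highest with MyoD alone.

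The 2 transcription factors differed from each other. Prrx1 (chromosome 1, 163245119 to 163313710, minus strand), a homeobox factor of the limb and craniofacial mesenchyme, was abundant in MEFs and elsewhere. It measured 523, 368 and 448 CPM with CP, 660, 440 and 536 CPM with SP, and 525, 459 and 443 CPM with F/R/C. With MyoD alone it measured 291, 396 and 433 CPM, against 505, 398 and 478 CPM in MEFs. Each transfected condition overlapped the MEFs. The log2FC against MEFs was -0.04 with CP (95% interval -0.43 to 0.34), 0.24 with SP (-0.14 to 0.63), 0.05 with F/R/C (-0.34 to 0.43) and -0.30 with MyoD alone (-0.69 to 0.08). The edgeR adjusted p was 0.20 or more in each, and the intervals leave room for a change of up to 0.69 on the log2 scale. With MyoD alone all 3 lines were lower than in their own MEFs.

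Tcf21 (chromosome 10, 22817281 to 22820174, minus strand), a basic helix-loop-helix factor needed for fibroblasts of the embryonic heart and kidney, was nearly absent from MEFs. It measured 1.51, 5.95 and 2.98 CPM with CP, 1.12, 2.09 and 1.85 CPM with SP, and 0.41, 5.30 and 5.10 CPM with F/R/C. With MyoD alone it measured 0.16, 0 and 0.39 CPM, against 0.47, 0.23 and 0.23 CPM in MEFs. Those values rest on 5, 0 and 13 counts with MyoD alone and 17, 8 and 8 counts in MEFs, so a library with none allows up to 3 counts. Every library with CP or SP exceeded the MEFs, whereas F/R/C line 1 did not. For Tcf21, log2FC against MEFs was 3.47 with CP (SE 0.95, edgeR adjusted p = 0.0067), 2.42 with SP (SE 0.93, adjusted p = 0.041) and 3.52 with F/R/C (SE 0.95, adjusted p = 0.0057). Without CP line 2 the value with CP was 2.80 (edgeR adjusted p = 0.035). With MyoD alone it was -0.78 (SE 0.99, edgeR adjusted p = 0.57). The call with SP was lost with the line as a block (adjusted p = 0.061) and in 5 of the 6 fits that left out a library of SP or MEFs, with log2FC between 2.21 and 2.85.

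Of the matrix and calcium-binding genes, Fbln1 (chromosome 15, 85205949 to 85286535, plus strand) encodes fibulin 1, a glycoprotein of elastic fibres and basement membranes. It measured 355, 488 and 365 CPM with CP, 313, 561 and 369 CPM with SP, and 636, 1081 and 582 CPM with F/R/C. With MyoD alone it measured 109, 341 and 357 CPM, against 79.3, 90.8 and 90.4 CPM in MEFs. F/R/C gave the highest libraries and the transfected groups were all above the MEFs, +MyoD line 1 by the least. The log2FC against MEFs was 2.21 with CP, 2.25 with SP, 3.14 with F/R/C and 1.63 with MyoD alone (SE 0.36 to 0.38), with edgeR adjusted p of 1.3e-04, 1.2e-04, 5.9e-06 and 0.0017 in the same order.

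Postn (chromosome 3, 54361109 to 54391037, plus strand) encodes periostin, a matricellular protein of activated fibroblasts. It measured 675, 718 and 766 CPM with CP, 413, 361 and 323 CPM with SP, and 381, 468 and 250.02 CPM with F/R/C. With MyoD alone it measured 76.0, 609 and 97.8 CPM, against 20.6, 74.1 and 36.5 CPM in MEFs. CP gave the highest 3 libraries, and with MyoD alone line 2 stood far above lines 1 and 3, of which line 1 exceeded the highest MEF library only narrowly. In log2FC against MEFs, Postn was at 4.04 (SE 0.67) with CP, a 16.5-fold higher level, 3.06 (SE 0.65) with SP and 3.07 (SE 0.65) with F/R/C, with edgeR adjusted p of 1.4e-04, 0.0010 and 8.9e-04. With MyoD alone it was 2.58 (SE 0.63, edgeR adjusted p = 0.0035), and without +MyoD line 2 it was 0.99 (edgeR adjusted p = 0.044). Without MEF line 2, the highest of the MEFs, these values were larger, at 4.65 with CP, 3.67 with SP, 3.67 with F/R/C and 3.18 with MyoD alone.

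S100a4 (chromosome 3, 90603771 to 90606045, plus strand), also called fibroblast-specific protein 1, is a calcium-binding protein that immune cells express as well. It measured 120, 70.0 and 99.3 CPM with CP, 127, 88.9 and 140 CPM with SP, and 127, 81.4 and 120 CPM with F/R/C. With MyoD alone it measured 160, 62.5 and 249 CPM, against 69.7, 21.4 and 48.2 CPM in MEFs. Line 2 was the lowest of the 3 lines in every condition, and each transfected library exceeded the MEFs of its own line. The log2FC against MEFs was 1.35 with SP (SE 0.44, edgeR adjusted p = 0.018), 1.24 with F/R/C (SE 0.44, adjusted p = 0.026) and 1.76 with MyoD alone (SE 0.44, adjusted p = 0.0040). With CP it was 1.05 (SE 0.43, edgeR adjusted p = 0.056) and not called, but it was called with the line as a block (log2FC 1.15, adjusted p = 0.0020) and without TMM scaling (adjusted p = 0.031). The F/R/C and SP calls were lost in 4 and 2 of the fits that left out a library, with MEF line 2 among them. A same-strand gene, Gm42674, overlaps S100a4 and held 12 to 204 counts per library, against 755 to 8398 for S100a4.

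Taken by comparison, 7 members were called higher and none lower with CP against MEFs, where 24.9% of all tested genes were called higher and 20.6% lower. With SP 9 were called higher and none lower, against 24.5% and 20.1% of all genes, and with F/R/C 9 and none, against 26.6% and 21.6%. With MyoD alone 8 were called higher and none lower, against 22.8% and 18.0%. The median log2FC of the 10 members was 2.22 with CP, 2.31 with SP, 2.68 with F/R/C and 1.80 with MyoD alone. All 3 libraries lay above all MEF libraries for 8 members with CP, 9 with SP, 8 with F/R/C and 6 with MyoD alone, which was so for 33.9%, 31.3%, 34.3% and 26.6% of all genes. None lay wholly below, compared with 29.8%, 28.5%, 29.5% and 24.7% of all genes. The 4 comparisons share the same MEF libraries, so their values stand side by side and are not independent of each other.

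**Figure D2:**
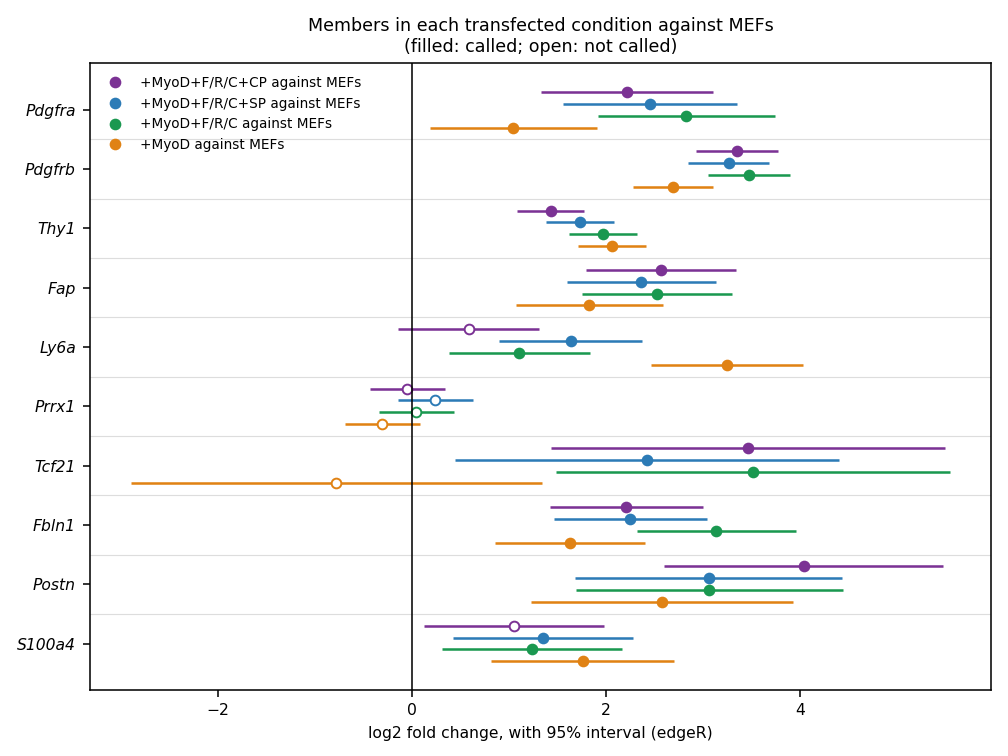
Log2 fold change (x axis) with its 95% interval for the 10 genes (rows) in +MyoD+F/R/C+CP, +MyoD+F/R/C+SP, +MyoD+F/R/C and +MyoD, each against MEFs, with filled points for genes called and open points for genes not called. Prrx1 is open at all 4 points and lies between -0.30 and 0.24, while the highest value is 4.04 for Postn with CP.

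Adding F/R/C to MyoD, without CP or SP, moved the members in both directions. Against +MyoD, 4 members were called higher with F/R/C and 1 lower, where 10.9% of all genes were called higher and 8.39% lower. The higher ones were Tcf21 (log2FC 4.30, SE 1.01, edgeR adjusted p = 0.0063), Pdgfra (1.78, SE 0.41, edgeR adjusted p = 0.0056), Fbln1 (1.51, SE 0.36, edgeR adjusted p = 0.0070) and Pdgfrb (0.78, SE 0.18, edgeR adjusted p = 0.0055). The size of the Tcf21 value rests on 5, 0 and 13 counts with MyoD alone, and it was 5.50 without +MyoD line 3 and 3.71 without +MyoD line 2. Ly6a was lower, with a log2FC of -2.14 (SE 0.35, edgeR adjusted p = 4.6e-04), and was lower in 3 of 3 lines. The F/R/C and +MyoD libraries did not overlap for any of these 5 genes, nor for Prrx1 (log2FC 0.35, SE 0.18, edgeR adjusted p = 0.20). For Tcf21 the gap was narrow, with F/R/C line 1 at 0.41 CPM (16 counts) and +MyoD line 3 at 0.39 CPM (13 counts). Among all genes, 18.1% lay wholly higher with F/R/C and 15.4% wholly lower. The remaining members were not called, at log2FC 0.70 for Fap, 0.49 for Postn, -0.09 for Thy1 and -0.52 for S100a4. Without +MyoD line 2, Postn reached 2.07 (edgeR adjusted p = 0.0022), and without +MyoD line 3 Fap reached 1.06 (edgeR adjusted p = 0.046). Thy1 turned to 0.10 without TMM scaling. The median of the members was 0.59, and that of all genes 0.03. In a fit of these 6 libraries alone, none of the 4 higher genes was called, at edgeR adjusted p of 0.051 to 0.067 with nearly the same log2FC, whereas Ly6a was still called lower.

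Adding CP or SP to F/R/C changed no member past the threshold. With CP none was called, where 0% of all genes were called higher and 0.0362% lower, and with SP none, where 0% were called in either direction. At an unadjusted p under 0.05, edgeR counted 1529 genes with CP, Thy1 and Fbln1 among them, and 1280 with SP, Fbln1 among them. DESeq2 called none of the members either, and 201 of all genes with CP and 66 with SP. Thy1 had the smallest p of the members, at 788 to 942 CPM with CP against 1099 to 1313 CPM with F/R/C (log2FC -0.54, 95% interval -0.88 to -0.20, edgeR adjusted p = 0.31). Fbln1 was also lower in every line, with a log2FC of -0.93 with CP (95% interval -1.69 to -0.17, edgeR adjusted p = 0.51) and -0.89 with SP (-1.64 to -0.13, edgeR adjusted p = 0.72). For Postn the log2FC was 0.97 with CP (95% interval -0.31 to 2.25) and -0.00 with SP (-1.27 to 1.27), and for Ly6a -0.52 with CP (-1.24 to 0.20) and 0.53 with SP (-0.19 to 1.25). The libraries did not overlap with F/R/C for Postn, Thy1, Pdgfra and Fbln1 with CP and for Ly6a and Fbln1 with SP. Among all genes, with CP 7.94% lay wholly higher and 9.08% wholly lower, and for SP these shares were 7.18% and 6.99%. The intervals of Tcf21, from -1.83 to 1.73 with CP and from -2.90 to 0.72 with SP, exclude little.

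CP and SP were not compared with each other by a test. Of the 10 members, the 3 libraries with CP lay wholly above the 3 with SP for 1, Postn, as for 5.07% of all tested genes, and wholly below them for 2, Ly6a and Pdgfra, as for 6.31% of all tested genes.

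**Figure D3:**
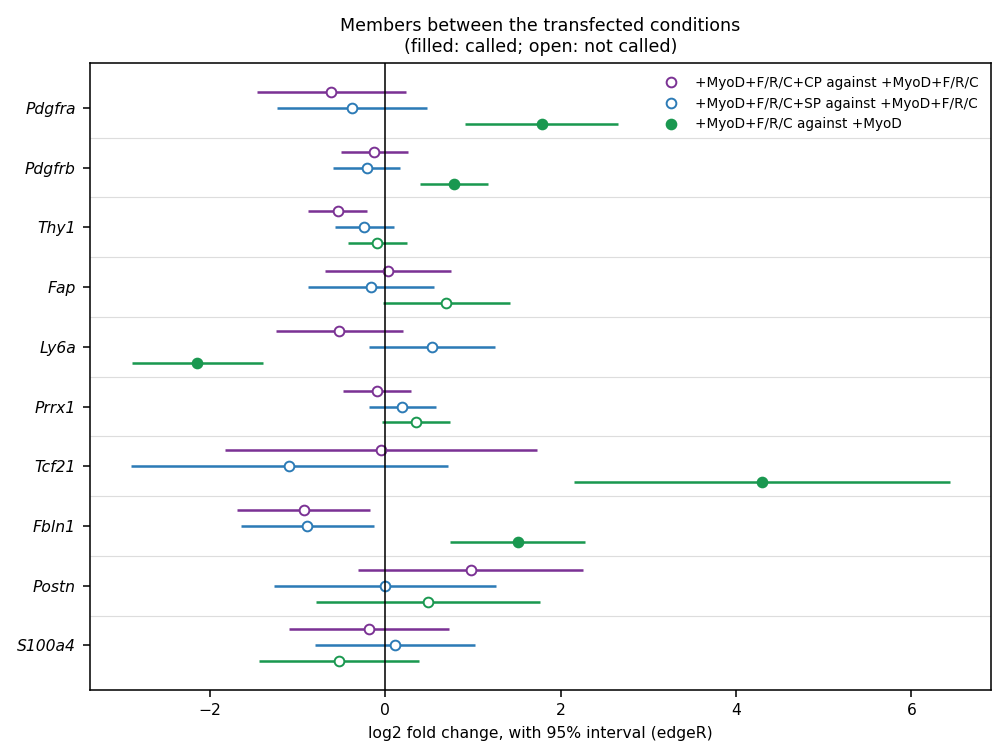
Log2 fold change (x axis) with its 95% interval for the 10 genes (rows) in +MyoD+F/R/C+CP and +MyoD+F/R/C+SP, each against +MyoD+F/R/C, and in +MyoD+F/R/C against +MyoD, with filled points for genes called and open points for genes not called. The filled points are Tcf21, Pdgfra, Fbln1 and Pdgfrb to the right and Ly6a at -2.14 to the left, all in the comparison of F/R/C with MyoD alone.

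Compared per length, in TPM, the highest 2 and the lowest 2 members kept their places, and those between changed theirs. Thy1 was the highest member in every condition, at 1624 TPM with CP, 1899 TPM with SP, 2385 TPM with F/R/C, 2379 TPM with MyoD alone and 486 TPM in MEFs, and S100a4 came next, at 643, 787, 742, 1022 and 279 TPM in the same order. Fap held rank 9 and Tcf21 rank 10 throughout. Prrx1 held rank 4 or 5 in the transfected conditions, at 201 to 299.5 TPM, and rank 3 in MEFs at 213 TPM. Postn held rank 3 with CP at 442 TPM and rank 7 in MEFs at 21.9 TPM. Ly6a held rank 3 with SP and with MyoD alone, at 304 and 957 TPM, rank 5 with F/R/C and rank 6 with CP, and rank 4 in MEFs at 89.3 TPM. Fbln1 held rank 3 with F/R/C at 498 TPM, rank 4 with CP and rank 5 in the others. Pdgfra and Pdgfrb held ranks 6 to 8. The levels of Thy1 and S100a4 rest in part on short transcripts, since the 449-base processed transcript Thy1-203 took 31.0% ± 3.2 of Thy1 TPM with CP and 22.4% ± 6.0 in MEFs (SD, n = 3 each), and the 336-base S100a4-202 took 39.3% ± 4.0 of S100a4 TPM with CP and 41.4% ± 1.5 in MEFs.

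Transcript composition was steady for some members and not for others. Fbln1 was divided between Fbln1-202 and Fbln1-201 in nearly the same ratio in each condition, with Fbln1-202 at 69.4% ± 1.5 with CP, 68.2% ± 2.1 with SP, 67.7% ± 0.86 with F/R/C, 66.1% ± 4.4 with MyoD alone and 69.0% ± 2.9 in MEFs (SD, n = 3 each). Pdgfrb came almost wholly from Pdgfrb-201, at 96.6% to 99.9% on average. For Prrx1, the protein-coding Prrx1-202 took 13.7% ± 5.7 with CP, 10.3% ± 12.6 with SP, 11.8% ± 3.1 with F/R/C and 10.5% ± 6.9 with MyoD alone, against 22.5% ± 2.2 in MEFs. Prrx1-201, also protein-coding and of similar length, went the other way. It took 37.1% ± 4.2 with CP, 39.5% ± 3.5 with SP, 35.3% ± 3.3 with F/R/C and 35.0% ± 7.9 with MyoD alone, against 29.1% ± 0.81 in MEFs. The processed transcript Prrx1-205 held 43.1% to 47.8% on average in each condition. For Postn, Postn-204 took 84.2% ± 2.5 with CP, 80.7% ± 4.9 with SP, 85.7% ± 5.0 with F/R/C and 79.8% ± 16.9 with MyoD alone, against 62.9% ± 22.5 in MEFs. These shares were not tested, and the spread of the Postn shares in MEFs is as wide as their distance from the other groups.

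Other genes of the same kinds did not all follow the members. Their counts stand beside the shares of all tested genes, of which 26.6% were called higher and 21.6% lower with F/R/C against MEFs, 22.8% and 18.0% with MyoD alone against MEFs, and 10.9% and 8.39% with F/R/C against +MyoD. Of 12 other fibroblast surface genes, 10 were called higher and 1 lower with F/R/C against MEFs, and 7 and 1 with MyoD alone. The lower one in both was the hyaluronan receptor gene Cd44, at 188, 174 and 222 CPM with F/R/C and 1047, 460.3 and 439 CPM with MyoD alone, against 1812, 1438 and 1627 CPM in MEFs (log2FC -3.06 and -1.33). The highest log2FC was 2.83 for the neprilysin gene Mme with F/R/C and 2.90 for the collagen receptor gene Mrc2 with MyoD alone. Between F/R/C and +MyoD, 2 were higher, led by Dpp4 (log2FC 2.37), and 5 lower, led by Cd44 (log2FC -1.74).

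Of 16 mesenchymal transcription factors, 10 were called higher and none lower with F/R/C against MEFs, from Osr2 at log2FC 4.42 to Tbx15 at 0.53. With MyoD alone 5 were higher and 1 lower, from Meox1 at 4.15 to Zeb2 at -0.72, and the Meox1 value rests on line 2, at 26.5 CPM against 0.97 and 0.74 CPM in the other +MyoD lines and 0.25 to 0.91 CPM in MEFs. Between F/R/C and +MyoD, 4 were higher, led by Twist1 (1.24), and 1 lower, Meox1 (-4.50).

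Matrix genes outside the member list were often lower with F/R/C than with MyoD alone. Of 19 other fibroblast matrix and secreted genes tested, of 20 listed, 16 were called higher and none lower with MyoD alone against MEFs, and with F/R/C 10 were higher and 5 lower. Between F/R/C and +MyoD, 2 were higher and 9 lower of 19, where 8.39% of all genes were lower, with a median log2FC of -0.70, against 0.59 for the members. Cygb, a globin of fibroblasts, was highest in all 3 comparisons, at 13.7, 19.2 and 17.7 CPM with F/R/C and 0.94, 4.60 and 7.12 CPM with MyoD alone, against 0, 0 and 0.03 CPM in MEFs. Fbln2, the gene of fibulin 2, was lowest with F/R/C, at 249, 392 and 176 CPM, and measured 5153, 6102 and 2674 CPM with MyoD alone, against 2296, 3040 and 3144 CPM in MEFs (log2FC of F/R/C -4.09 against +MyoD and -3.38 against MEFs). Its relative Fbln1, a member, was higher with F/R/C in both of these comparisons. The smallest called rise with MyoD alone was that of Igfbp4 (log2FC 0.90).

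The ligands of the PDGF receptors did not follow their receptors with F/R/C. None of the 4 ligand genes was higher and 2 were lower with F/R/C against MEFs, and 3 were lower against +MyoD, whereas 2 were higher with MyoD alone against MEFs. Pdgfc measured 17.4, 18.0 and 17.4 CPM with F/R/C and 82.4, 117 and 95.6 CPM with MyoD alone, against 54.6, 63.1 and 79.6 CPM in MEFs. Its log2FC was -2.48 for F/R/C against +MyoD, -1.90 for F/R/C against MEFs and 0.58 for MyoD alone against MEFs. Pdgfa fell with F/R/C against MEFs (log2FC -1.35). Pdgfd rose with MyoD alone (log2FC 1.20) and was lower with F/R/C than with MyoD alone (-1.94).

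The families of Ly6a and S100a4 were mixed. Of 5 other Ly6 family genes tested, of 8 listed, 4 were higher with MyoD alone against MEFs, from Ly6c1 at log2FC 4.09 to Ly6e at 0.75, and 3 with F/R/C, from Ly6h at 5.38 to Ly6c1 at 2.12. Between F/R/C and +MyoD 2 were lower, Ly6c1 (-1.98) and Lynx1 (-0.93), and none higher. Of 8 other S100 genes tested, of 9 listed, 3 were higher and 1 lower with MyoD alone, from S100a16 at 2.82 to S100a10 at -0.75. Counts out of 8 genes are too small to set against the 22.8% and 18.0% of all genes, and nothing is read from them. The same holds for the F/R/C counts that follow. With F/R/C 4 were higher and 3 lower against MEFs, from S100b at 3.87 to S100a11 at -1.22, and 1 was higher and 1 lower against +MyoD, again S100b (3.50) and S100a11 (-0.89).

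**Figure D4:**
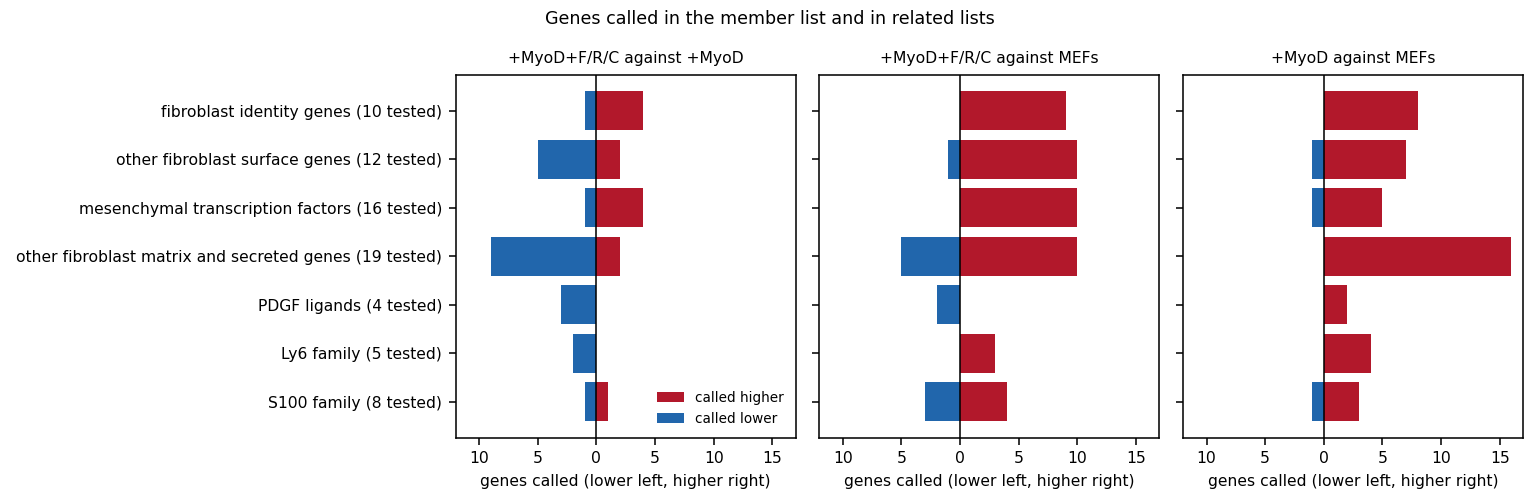
Number of genes called higher (right of 0) and lower (left of 0) among the 10 fibroblast identity genes and in 6 related lists, in +MyoD+F/R/C against +MyoD, +MyoD+F/R/C against MEFs and +MyoD against MEFs. The other matrix and secreted genes show 9 lower in the first comparison and none lower in the last.

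Across the 15 libraries the members did not move as 1 block. Pearson's r of log2 CPM was highest for Pdgfra with Fbln1 (0.92), Fap with Fbln1 (0.90), and Pdgfrb with Fap (0.90), and lowest for Ly6a with Tcf21 (-0.26) and Ly6a with Prrx1 (-0.14). These values describe 15 libraries that share 5 conditions and 3 lines. Over all genes with a mean of at least 1 CPM, those most like Pdgfrb were Ndrg3, C1qtnf6 and Fgf11 (r of 0.99 each), and those most like Pdgfra were Cep112 (0.98), Tmem26 (0.97) and Il1r1 (0.97). Rfx5 (0.99), Mmp19 (0.98) and Stat3 (0.98) were nearest to Thy1, and Agtr1a (0.99), Itm2a (0.97) and Cpxm2 (0.97) to Fap. Ly6a was followed most closely by Spp1 (0.95), Dglucy (0.94) and its family member Ly6c1 (0.94), and Spp1, the osteopontin gene, averaged 1414 CPM with F/R/C and 6624 CPM with MyoD alone, against 375 CPM in MEFs. Tcf21 was nearest to Adamdec1 (0.96), Gata5 (0.93) and Icosl (0.91), and Fbln1 to Wnt16 (0.98), Plppr3 (0.98) and Aspg (0.98). For Postn these were Pgap3 (0.96), Tcap (0.95) and Srpx (0.94), and for S100a4 Akr1b10 (0.93), Samd12 (0.92) and Pts (0.90). Prrx1 had the weakest nearest genes, Mcm9 (0.84), B230118H07Rik (0.82) and Prrg1 (0.81).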

How the data were processed

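RNA from 15 cultures was extracted, enriched for poly-A RNA and made into stranded libraries by the authors, who sequenced single-end reads. Their processing notes name bcl2fastq 2.20, fastp 0.20.0, kallisto 0.46.1 and DESeq2, with the build GRCm38.p6. The deposited files hold estimated counts per transcript, as the authors' kallisto run gave them with no normalization. They also hold TPM per transcript, values that the authors obtained from kallisto, adjusted for effective length and scaled per library. The TPM values were used to rank members within a condition, by means of 3 libraries, and to give transcript shares. Both were set side by side across conditions without a test. Scaled by length, TPM was also used in 1 alternative.

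Of 121843 transcripts, 121104 matched the GENCODE M21 annotation and 739 did not (0.236 to 0.327% of counts) and were left out. Estimated counts were summed to 35675 genes and rounded. Genes were tested with edgeR 4.0.16 (R 4.3.3; glmQLFit and glmQLFTest, TMM, minimum count 10, minimum total 15) in 1 fit of all 15 libraries, and p-values were adjusted over all 19331 genes. The residual degrees of freedom were 10 and the median prior degrees of freedom 5.00. Intervals are 95% intervals from the t distribution. No replicates were duplicates (chi-square per degree of freedom at least 18.0).

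The study describes 3 MEF lines that received each treatment. The labels number replicates 1 to 3 in each condition, and the names of the deposited files carry 1 code per number across conditions. Replicate numbers were therefore taken to name lines, which no source states outright. After subtraction of group means, libraries of 1 line correlated at 0.074 on average (30 pairs, -0.0038 to 0.237) and those of different lines at -0.037 (60 pairs), and 15 of 15 were closest to their own line. The study's methods give no block, so it was an alternative, as were DESeq2 1.42.0, its size factors, no TMM, no filter, length-scaled counts, the 6 libraries of a comparison alone, and leaving out each library.

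The 10 members, 6 related lists and 11 marker lists were chosen with earlier results of these data known. Named genes are all members, the called gene of each related list with the highest and the lowest log2FC in the comparisons of F/R/C and of MyoD alone with MEFs and of F/R/C with +MyoD, and the 3 genes with the highest Pearson r to each member (log2 of CPM + 1). Promoters are from RefSeq. Analyses used Python 3.11.15, pandas 2.3.3, scipy 1.17.1 and matplotlib 3.10.9.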

Additional observations from a re-analysis of the deposited data

How the results depend on the processing

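Of 182 counts of members called, recomputed under the alternatives, 181 were within 1.5 times the reported count. The exception was F/R/C against +MyoD in a fit of those 6 libraries alone, where 0 members were called higher in place of 4, in a fit where fewer libraries shared the estimate of the spread. Of 909 values of members, 848 kept direction and call, 26 lost and 8 gained a call, and 27 changed sign, none of them a value that had been called. With the replicate block, the signs that turned were Postn with SP against F/R/C (0.085) and Tcf21 with CP against F/R/C (0.085), and beside the calls given above for Pdgfra, Tcf21, Ly6a and S100a4 the block changed none. With length-scaled counts these were Postn with SP (0.17) and Fap with CP (-0.0162) against F/R/C, and without TMM scaling Prrx1 with CP against MEFs (0.19) and Thy1 with F/R/C against +MyoD (0.10). Leaving out 1 library gave ranges on both sides of 0 for Prrx1 with F/R/C (-0.056 to 0.11) and with CP (-0.20 to 0.045) against MEFs, and for Thy1 with F/R/C against +MyoD (-0.24 to 0.0052). With SP against F/R/C the ranges were -0.35 to 0.031 for Fap, -0.21 to 0.21 for Postn and -0.055 to 0.28 for S100a4. With CP against F/R/C they were -0.29 to 0.072 for Pdgfrb, -0.15 to 0.23 for Fap, -0.22 to 0.024 for Prrx1 and -0.69 to 0.33 for Tcf21. Over all genes, DESeq2 called 76 higher and 125 lower with CP against F/R/C, where edgeR called 0 and 7, and 49 and 17 with SP, where edgeR called none. Depth limits only Tcf21, which has at most 17 counts in a library of MEFs or of MyoD alone and 16 counts in F/R/C line 1.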

Other observations

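With MyoD alone the 3 lines stood far apart for several members. Line 1 was the lowest for Pdgfra, Pdgfrb, Thy1, Fap, Ly6a, Prrx1, Fbln1 and Postn, at 61.7 CPM for Pdgfra against 253 and 323 CPM in lines 2 and 3. Line 2 held 609 CPM of Postn against 76.0 and 97.8 CPM, and the same library held 26.5 CPM of Meox1, a homeobox factor of the somite, against 0.97 and 0.74 CPM. Line 3 was the highest for Ly6a at 625 CPM and for S100a4 at 249 CPM. These genes were singled out after their values were seen.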
